A study of Mus musculus with 15 samples.

Results

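The 30 genes described here encode the route by which pyruvate enters mitochondria and is oxidized: the pyruvate carrier and the pyruvate dehydrogenase complex (7 genes), the kinases and the phosphatase that switch the complex (4 genes), the enzymes of the tricarboxylic acid (TCA) cycle with their cytosolic counterparts (15 genes), and the citrate, dicarboxylate and malate carriers with the mitochondrial transhydrogenase (4 genes). They were chosen by name, from what their proteins do, with earlier results of these data known. Symbols were matched to the Ensembl identifiers of the count table, which located all 30 genes among 55450, and all 30 were among the 15808 genes tested after low counts were filtered out.

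Liver mRNA was sequenced from 15 female C57BL/6 mice from the National Institute on Aging, kept on chow, to ask how aging and protectin DX (PDX), a lipid mediator made from docosahexaenoic acid, change transcription. The Adult mice (A1 to A5, n = 5) started at an age of 6 months and were given corn oil vehicle. The Old mice (O1 to O5, n = 5) started at an age of 22 months with the same vehicle, and the PDX mice (P1 to P5, n = 5) were of that age too and received 30 ng of PDX per g of body weight in corn oil. All mice were gavaged daily before the livers were taken, for 9 weeks by the treatment protocol and 8 weeks by the design text, no genetic change is named for any group, and the labels do not give the C57BL/6 substrain. Each library came from a separate mouse. Total counts were 22424383 to 36070835 in the Adult, 25480180 to 29069346 in the Old and 26113995 to 30139181 in the PDX group, and of the members only Nnt had fewer than 96 counts in any mouse. Levels are CPM, counts scaled to a common library size, with TMM factors.

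As background, the pyruvate dehydrogenase complex converts pyruvate to acetyl-CoA inside mitochondria, and kinases switch it off by phosphorylation while phosphatases switch it on again. Citrate synthase joins the acetyl group to oxaloacetate, and the following steps of the cycle release carbon dioxide, pass electrons to the respiratory chain and regenerate oxaloacetate. In liver the cycle also supplies carbon for gluconeogenesis, lipid synthesis and amino acid metabolism, so carriers and cytosolic forms of several enzymes exchange its intermediates with the cytosol.

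The tissue label fitted the data. All 10 hepatocyte markers tested were detected, and albumin (Alb) alone was at 111330.0, 106560.0 and 120230.0 CPM on average in the Adult, Old and PDX groups. Summed over the 10 markers, the level was 161020.0, 164800.0, 157520.0, 148560.0 and 154990.0 CPM in A1 to A5, 250810.0, 107740.0, 161880.0, 214710.0 and 104840.0 CPM in O1 to O5 and 183540.0, 170560.0, 165610.0, 211770.0 and 207740.0 CPM in P1 to P5. In bulk tissue, fewer cells of a type and less RNA per cell cannot be told apart, and this holds for every level below. The Old mice O2 and O5 stood apart from the other 3 in the levels of the members, and the counts of members and their medians are given with and without them. The study also reported both apart from the remaining mice on the first principal component of all genes. Because both were low in most members, leaving them out by itself brings the Old medians nearer to those of the other 3.

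Per kilobase of exon, the scale on which genes can be compared with each other, the most abundant member in the Adult livers was Mdh1, cytosolic malate dehydrogenase, at 297 ± 16.8 CPM per kilobase (SD, n = 5). Idh1, the cytosolic NADP-linked isocitrate dehydrogenase, followed at 215 ± 33.6, then Slc25a1, the citrate carrier, at 118 ± 13.1, Idh2, the mitochondrial counterpart of Idh1, at 85.6 ± 6.09, and Aco1, cytosolic aconitase, at 72.7 ± 5.22 CPM per kilobase. The least abundant were Pdk4 (6.48 ± 4.58), Pdp2 (6.17 ± 1.40) and Nnt (0.196 ± 0.0396 CPM per kilobase). Of the 29 pairs of neighbours in this order, 20 had overlapping ranges among the Adult mice. Each of the first 4 genes lay above the next without overlap. In the Old and the PDX livers Mdh1, Idh1 and Slc25a1 kept ranks 1 to 3 by mean, and Nnt kept rank 30.

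In aging, that is Old against Adult mice, 4 of the 30 members (13.3%) passed an adjusted p of 0.05 (edgeR quasi-likelihood, Benjamini-Hochberg over all genes), and all 4 were lower in Old: Dlat, Pdk2, Aco1 and Slc25a10. Over all 15808 genes, 2.07% were called lower and 4.71% higher, and 0 members were called higher. Each of the 4 belongs to a different role: Dlat is the catalytic core of the pyruvate dehydrogenase complex, Pdk2 one of its kinases, Aco1 the cytosolic aconitase and Slc25a10 the mitochondrial dicarboxylate carrier. At an unadjusted p under 0.05, 14 members (46.7%) were lower, where 9.81% of all genes were lower. At that threshold 0 members were higher, and at least the 4.71% of all genes called higher passed it. The fitted log2 fold change was below 0 for 27 of 30 members (90.0%), against 43.2% of all genes, and the exceptions were Fh1, Mdh2 and Idh3a. The median log2 fold change was -0.43 over the members and 0.07 over all genes. For 5 members (16.7%), Idh3b, Ogdh, Sucla2, Suclg1 and Mdh1, every Old mouse was below every Adult mouse, and 4.48% of all genes had this pattern.

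How many members passed depended on the fit and on single mice. The count was 10 with the Wald test of DESeq2, 0 in a fit of the 10 Old and Adult mice alone, and 1 (Dlat) without O2 and O5. It was 1 without A1, A3 or A4, 0 without A2 or A5, 2 without O2 and 8 without O3. Calls over all genes moved too: 4.98% of genes were lower with DESeq2, 0.145% in the fit of both groups alone, 2.26% without O2 and O5, 0.304% to 0.411% without 1 Adult mouse, 0.949% without O2 and 5.04% without O3. The median log2 fold change of the members was -0.18 without O2 and O5, where the median over all genes was 0.01.

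The other counts were also taken without O2 and O5. At an unadjusted p under 0.05, 10 members were then lower and 0 higher (10.7% and 14.1% of all genes), and the same 5 members as before had all Old mice below all Adult mice (8.29% of all genes). The log2 fold change was below 0 for 26 members (48.9% of all genes), and the exceptions were Mpc1 (0.15), Dld (0.00), Idh1 (0.08) and Mdh2 (0.15), whereas Fh1 (-0.16) and Idh3a (-0.32) were below 0. Without O5 alone, all 30 were below 0, among them Fh1 at -0.39 and Idh3a at -0.25. Without O2 and O5, the genes called with all mice had log2 fold changes of -0.58 (Dlat), -0.59 (Pdk2), -0.40 (Aco1) and -0.55 (Slc25a10).

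**Figure D1:**
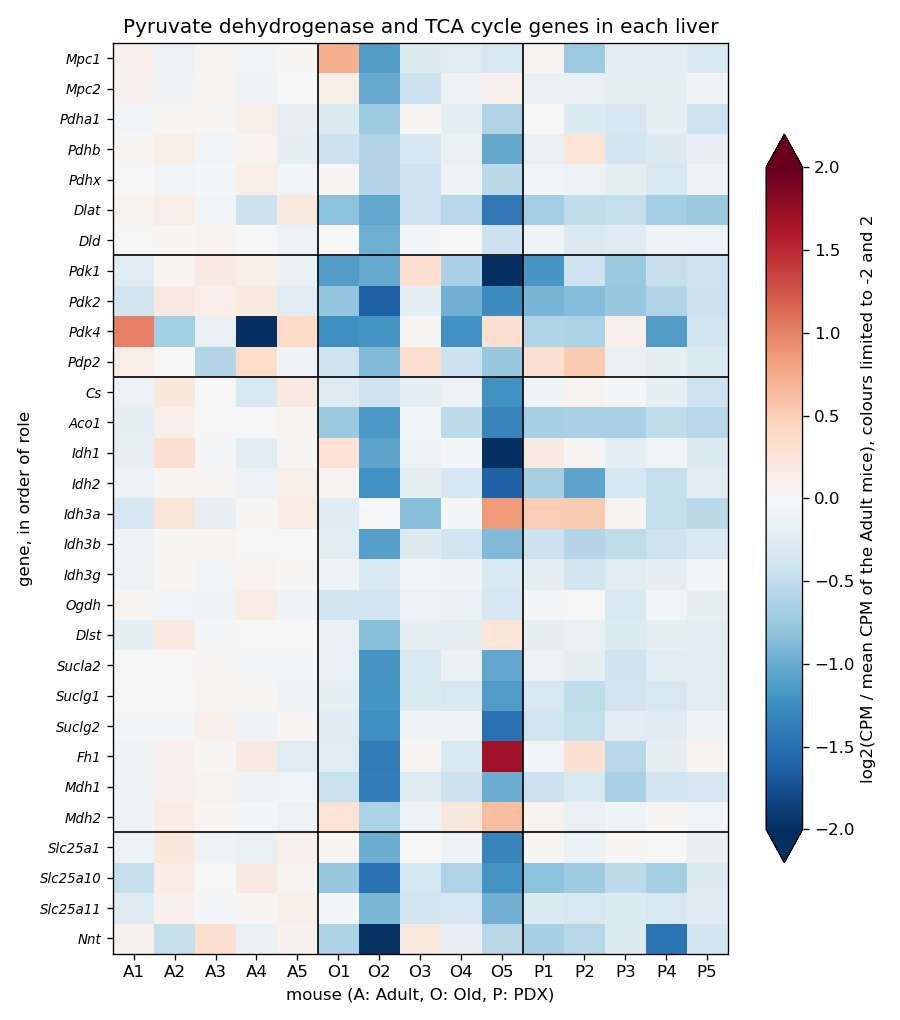
Level of each of the 30 genes (rows, in order of role, separated by lines into entry, kinases and phosphatase, cycle enzymes, and carriers) in each of the 15 mice (columns), as the log2 ratio of its CPM to the mean CPM of the 5 Adult mice. O2 is below the Adult mean for all 30 genes, whereas O5 combines the lowest values of 10 genes with the highest values of Idh3a, Dlst, Fh1 and Mdh2.

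The departure from the Adult livers was unequal among the Old mice. The median over the members of the log2 ratio to the Adult mean was -0.25 in O1, -1.03 in O2, -0.18 in O3, -0.20 in O4 and -0.92 in O5, and it was -0.17, -0.30, -0.28, -0.27 and -0.27 in P1 to P5. O2 and O5 were thus far below the 3 other Old mice, and those 3 lay within the range of the PDX mice. In O2, 28 of 30 members were below all Adult mice and the other 2, Pdk4 and Idh3a, were within their range. In O5, 24 were below, 5 above (Mpc2, Idh3a, Dlst, Fh1 and Mdh2) and 1 (Pdk4) within. In O1, O3 and O4 the number below was 14, 13 and 19, and in P1 to P5 it was 16, 20, 22, 22 and 19. Among all genes tested, 23.8% to 39.4% lay below the Adult range in an Old or PDX mouse. The share above that range ran from 23.45% in P5 to 39.1% in O5, the mouse with 5 of 30 members above it. The summed level of the members was 2703 CPM in O2 and 3579 CPM in O5, against 5140.3 to 5913 CPM in the Adult mice, 4598 to 4913 CPM in O1, O3 and O4, and 4285 to 4656 CPM in the PDX mice. For 29 of the 30 members, all but Pdk4, the SD of log2 CPM was larger in the Old group than in both other groups, as it was for 84.4% of all genes.

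**Figure D2:**
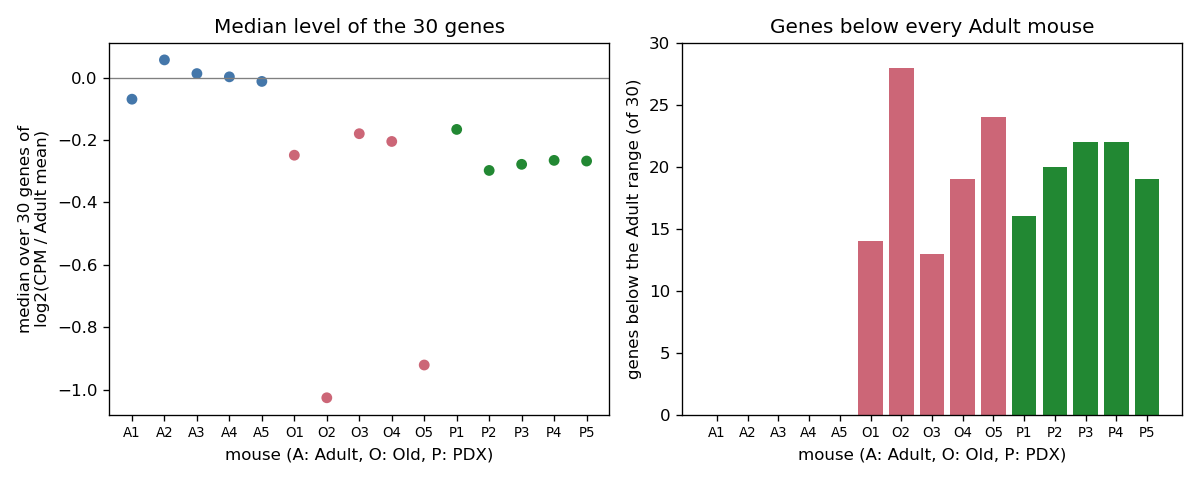
Left, the median over the 30 genes of the log2 ratio of CPM to the Adult mean, 1 point per mouse. Right, the number of the 30 genes whose CPM was below that of every Adult mouse, 1 bar per mouse; O2 (28 genes) and O5 (24 genes) had the highest numbers, and the 5 PDX mice had 16 to 22.

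Markers of other cells differed among the mice as well. O2 had the highest sum of the neutrophil, B and plasma cell, macrophage, T and NK cell, erythroid and proliferation lists. Of 8 neutrophil markers tested, 7 were called higher in Old than in Adult mice, and the sum over the list was 4.33, 3.77, 6.29, 4.87 and 2.70 CPM in A1 to A5, 10.5, 238, 14.8, 10.6 and 46.0 CPM in O1 to O5 and 15.3, 75.4, 28.4, 43.9 and 21.8 CPM in P1 to P5. S100a9 was the most abundant of the list, and Ly6g was at 0 counts in every Adult mouse. Mpo, Camp and Ltf, proteins of neutrophil granules, had mean levels of 0.0588, 0.0400 and 0.239 CPM in Adult and 5.01, 2.86 and 10.9 CPM in Old mice. The B and plasma cell markers, of which 5 of 7 were called higher in Old, summed to 29.6, 19.6, 41.0, 31.1 and 32.2 CPM in A1 to A5, 266, 728, 274, 187 and 168 CPM in O1 to O5 and 386, 675, 399, 335 and 190.2 CPM in P1 to P5. Ighm led that list (19.8 CPM in Adult and 269 CPM in Old mice), and Mzb1 and Ms4a1 had log2 fold changes of 3.51 and 3.11 (edgeR adjusted p = 0.0151 and 0.0310). O2 had the highest sum of each of these lists, whereas O5 was below P2 for the neutrophil list and the lowest Old mouse for the B and plasma cell list. Without O2 and O5, 2 of 8 neutrophil markers and 5 of 7 B and plasma cell markers were called higher.

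None of the 8 macrophage and Kupffer markers was called, yet their sum was 3402 CPM in O2 and 340.0 CPM in O5, against 466 to 705 CPM in the Adult and 805 to 1685 CPM in the PDX mice. By mean CPM, Clec4f led this list in the Adult and Old and Cd5l in the PDX group. The 9 T and NK cell markers (0 called) summed to 183 CPM in O2, and to at most 32.7 CPM in any other mouse, and Cd4 led the list in Old mice (116 CPM in O2), Cd3g in Adult and Cd8a in PDX mice. Of 8 stellate and fibroblast markers, 3 were called higher in Old (Col1a1, log2 fold change 2.56, Acta2, 1.13, and Des, 0.85), and the sum was 773 CPM in O2 and 1039.7 CPM in O5 against 368 to 411 CPM in the Adult mice, and P3 was at 714 CPM, with Dcn the most abundant. The erythroid markers (0 of 6 called, Hbb-bs the most abundant) summed to 1059 CPM in O2 and 95.8 CPM in O5, against 174 to 266 CPM in the Adult mice. Their sum was 205, 476 and 120 CPM in O1, O3 and O4, and 125 to 478 CPM in the PDX mice. The cholangiocyte markers (0 of 5 called, Spp1 the most abundant) summed to 44.2, 50.9, 37.8, 41.8 and 49.8 CPM in A1 to A5, 54.7, 69.1, 51.3, 71.0 and 96.5 CPM in O1 to O5 and 53.1, 88.7, 104, 65.7 and 68.5 CPM in P1 to P5. The sinusoidal endothelial markers (0 of 7 called, led by Clec4g in Adult and PDX and by Stab1 in Old mice) summed to 351, 365, 389, 383 and 366 CPM in A1 to A5, 326, 285, 333, 303 and 178 CPM in O1 to O5 and 386, 339.6, 379, 285 and 332 CPM in P1 to P5. On the cholangiocyte and endothelial lists O2 was not apart from all other mice. Of 5 proliferation genes tested, 1, Mki67, was called higher (log2 fold change 3.27), and the list summed to 195 CPM in O2. Without O2 and O5, Acta2 alone of the stellate list and again Mki67 were called, and 2 hepatocyte markers were called higher, with a median of 0.41 over that list. No gene of these lists was at 0 in every mouse. The hepatocyte markers had 0 of 10 called and a median log2 fold change of 0.04, while O2 and O5 had the lowest hepatocyte sums of all 15 mice. The TMM factor of O2 was 1.33, and those of the other 14 mice were 0.884 to 1.08. The part of these cell markers and of the scaling in the lower levels of the members was not tested. Euthanasia alternated between the groups within batches, the sources used here do not name the batch of a mouse, and none was compared within a batch.

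Entry of pyruvate starts at the inner mitochondrial membrane, where Mpc1 and Mpc2 form the pyruvate carrier. Mpc1 had 41.0 ± 2.34 CPM in Adult, 37.5 ± 17.9 in Old and 34.2 ± 6.32 in PDX livers (SD, n = 5 each), and Mpc2 had 207 ± 12.0, 180.2 ± 51.6 and 188 ± 6.47 CPM. Neither passed the test in aging (log2 fold changes -0.13 and -0.20). For both, O1 had the highest and O2 the lowest value of the 15 mice, so the Old group spanned the Adult group on both sides. Mpc1 was at -0.42 without O1 and 0.05 without O2, and Mpc2 at -0.05 without O2 and -0.10 without O2 and O5.

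Within the pyruvate dehydrogenase complex, Pdha1 and Pdhb encode the alpha and beta subunits that decarboxylate pyruvate, Dlat the acetyltransferase of the core, Pdhx the protein that binds dihydrolipoyl dehydrogenase to that core, and Dld the dehydrogenase itself. Dlat was at 108, 113, 98.9, 76.3 and 118 CPM in A1 to A5, 57.9, 50.1, 77.0, 69.3 and 38.1 CPM in O1 to O5 and 64.3, 72.1, 73.7, 63.9 and 61.6 CPM in P1 to P5. The Old and Adult ranges met only where O3 (77.0 CPM) exceeded A4 (76.3 CPM), and all 5 PDX mice were below all Adult mice. From 103 ± 16.5 CPM in Adult to 58.5 ± 15.4 in Old mice (SD, n = 5 each), the log2 fold change was -0.81 (standard error 0.17, edgeR adjusted p = 0.0207, the Adult mean above 5 of 5 Old mice). Dlat was called in 18 of the 23 alternative fits. It was not called with the replicate block, in the fit of both groups alone, or without A1, A2 or A5, with adjusted p-values of up to 0.0939 over the alternatives (edgeR, DESeq2 or limma).

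Pdhb was at 87.2, 92.1, 81.9, 88.4 and 73.6 CPM in A1 to A5, 62.9, 56.3, 66.8, 76.9 and 41.8 CPM in O1 to O5 and 76.2, 102, 65.6, 69.8 and 75.5 CPM in P1 to P5. P2 was the highest and O5 the lowest of the 15 mice, and O4 alone of the Old mice lay within the Adult range. The log2 fold change in aging was -0.47 (standard error 0.16, edgeR adjusted p = 0.0739). Pdha1, the partner of Pdhb, ranged from 97.6 to 162 CPM in Old and 143 to 173 CPM in Adult mice (log2 fold change -0.33), Pdhx from 20.0 to 30.3 and 28.7 to 32.8 CPM (-0.30), and Dld from 79.6 to 156 and 146 to 164 CPM (-0.24). None of these 4 passed the threshold in edgeR's test. Over the 7 entry genes the log2 fold changes ran from -0.81 (Dlat) to -0.13 (Mpc1), all below 0. Leaving out O2 and O5 gave -0.29 for Pdhb, -0.13 for Pdha1 and -0.13 for Pdhx, and leaving out O2 alone gave -0.10 for Dld. A ratio of members within a mouse does not depend on library scaling. The ratio of Dlat to Pdhx per kilobase, a pair chosen after the values were seen, was 2.79 ± 0.563 in Adult, 1.95 ± 0.508 in Old and 2.01 ± 0.221 in PDX mice (SD, n = 5 each), and the groups overlapped, with A4 at 1.87 and O3 at 2.76.

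Kinases and a phosphatase of the complex are also among the members. Pdk2, a kinase abundant in liver, was at 101, 147, 142, 149 and 109 CPM in A1 to A5, 75.3, 41.9, 115, 66.7 and 54.5 CPM in O1 to O5 and 68.4, 71.4, 76.9, 85.5 and 95.8 CPM in P1 to P5. O3 (115 CPM) was the only Old mouse within the Adult range, O2 was the lowest of all mice, and every PDX mouse was below every Adult mouse. In Old mice the mean was 70.6 ± 27.7 CPM and in Adult mice 129.7 ± 22.9 CPM (SD, n = 5 each), a log2 fold change of -0.88 (standard error 0.22, edgeR adjusted p = 0.0338, the Adult mean above 5 of 5 Old mice). Pdk2 was called in 14 of 23 alternatives. The call was lost without O2, without O2 and O5, without any 1 Adult mouse, with the replicate block and in the fit of both groups alone.

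For further members whose values in single mice follow (Pdk1, Pdk4, Idh1, Idh2, Sucla2, Suclg1, Fh1 and Mdh2), these were chosen after the values were seen. Pdk1, a kinase whose gene responds to hypoxia in many tissues, was at 54.7, 58.8, 150.2, 76.0 and 20.6 CPM in O1 to O5, against 100.3 to 134 CPM in Adult and 53.3 to 89.2 CPM in PDX mice. O3 was the highest of the 15 mice and O5 the lowest, and the log2 fold change in aging was -0.72 (standard error 0.35, edgeR adjusted p = 0.196). Pdk1 was called without O3 (-1.18), and its log2 fold change was -0.48 without O5 and -0.33 without O2 and O5. Pdk4, the kinase induced by fasting, was at 46.0, 14.2, 20.5, 3.51 and 29.7 CPM in A1 to A5, 9.73 to 28.6 CPM in Old and 10.5 to 24.4 CPM in PDX mice. The Adult group thus held both the highest (A1) and the lowest (A4) value, and Pdk4 did not pass the test in aging (log2 fold change -0.49, standard error 0.50). This value rested on single mice, at -0.03 without A1, -0.76 without A4 and -0.79 without O5. Pdp2, a phosphatase that reactivates the complex, was at 38.7, 34.9, 23.5, 45.2 and 33.3 CPM in A1 to A5, 26.3, 19.1, 43.8, 26.2 and 20.8 CPM in O1 to O5 and 44.1, 50.7, 31.9, 31.0 and 28.8 CPM in P1 to P5. The 3 groups overlapped throughout, P2 was the highest and O2 the lowest mouse, and the log2 fold change in aging was -0.37 (edgeR adjusted p = 0.332). It was -0.60 without O3 and -0.12 without O2 and O5.

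The first steps of the cycle condense acetyl-CoA with oxaloacetate and turn citrate into isocitrate. Cs, citrate synthase, was at 157, 197, 169.7, 136 and 193 CPM in A1 to A5, 143, 128, 149.9, 157 and 73.6 CPM in O1 to O5 and 160.1, 179, 167, 151 and 128 CPM in P1 to P5. O5 was the lowest of all mice, O2 was next and just below both other groups, and O1, O3 and O4 lay within the Adult range, and the log2 fold change in aging was -0.39 (edgeR adjusted p = 0.185) and -0.24 without O5. Aco1, which works as aconitase in the cytosol and, without its iron-sulfur cluster, as an iron regulatory protein, was at 289.5, 352, 326, 327 and 339.9 CPM in A1 to A5, 196, 148, 314, 227 and 129 CPM in O1 to O5 and 206, 209.8, 209, 231 and 219.6 CPM in P1 to P5. All PDX mice and 4 of 5 Old mice were below all Adult mice, and O3 (314 CPM) lay within the Adult range. The mean was 203 ± 73.2 CPM in Old and 327 ± 23.5 CPM in Adult mice (SD, n = 5 each), a log2 fold change of -0.69 (standard error 0.19, edgeR adjusted p = 0.0476, the Adult mean above 5 of 5 Old mice). Aco1 was the least stable of the 4 calls, past the threshold in 6 of 23 alternatives: with RLE factors, DESeq2, limma on the authors' log2-scale values, and without O3, O4 or O5.

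Isocitrate dehydrogenases come in NADP-linked forms, Idh1 in the cytosol and Idh2 in mitochondria, and in an NAD-linked mitochondrial form built from Idh3a, Idh3b and Idh3g. Idh1 was at 723, 285, 562, 586 and 96.2 CPM in O1 to O5 and 507 to 746 CPM in Adult mice. O5 was the lowest of all mice by far, O2 was next, and the other 3 Old mice lay within the Adult range, and the log2 fold change of -0.40 had a standard error of 0.37 and was -0.62 without O1, -0.26 without O2 and -0.14 without O5. Idh2 was at 230.4, 96.0, 195, 175 and 72.4 CPM in O1 to O5 and 203 to 240.5 CPM in Adult mice (-0.53, standard error 0.26), with -0.35 without O5 and -0.14 without O2 and O5. Idh3b was 98.8 to 180.3 CPM in Old and 201 to 222 CPM in Adult mice, without overlap, and just missed the threshold (log2 fold change -0.54, standard error 0.16, edgeR adjusted p = 0.0522). Idh3g was 57.9 to 69.6 and 67.5 to 75.9 CPM (-0.16), with -0.29 for Idh3b and -0.06 for Idh3g without O2 and O5, and Idh3a 25.1 to 80.4 and 35.3 to 53.3 CPM (0.05). The catalytic subunit Idh3a and its partner Idh3b can be compared within each mouse: their ratio per kilobase, chosen after the values were seen, was 0.118, 0.167, 0.121, 0.144 and 0.159 in A1 to A5, 0.139, 0.302, 0.0962, 0.183 and 0.472 in O1 to O5 and 0.270, 0.305, 0.211, 0.136 and 0.121 in P1 to P5. O2, O4, O5, P1, P2 and P3 were above every Adult mouse, O5 was the highest and O3 the lowest of all mice.

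Ogdh and Dlst encode the dehydrogenase and the succinyltransferase of the alpha-ketoglutarate dehydrogenase complex, whose further subunit is Dld. Ogdh was 156 to 188 CPM in Old and 191 to 227 CPM in Adult mice, without overlap (log2 fold change -0.26, standard error 0.11, edgeR adjusted p = 0.138). Its highest Old mouse and its lowest Adult mouse were 188 and 191 CPM, so the gap was small. Dlst was 129.6 to 279 and 205 to 265 CPM (-0.19), with O2 the lowest and O5 the highest of the 15 mice, and -0.05 without O2 and -0.33 without O5.

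Succinyl-CoA ligase pairs the shared alpha subunit Suclg1 with an ADP-forming beta subunit, Sucla2, or a GDP-forming beta subunit, Suclg2. Among the Adult mice Sucla2 varied little, from 171 to 178 CPM, and the Old mice were at 157, 77.7, 141, 159 and 84.4 CPM in O1 to O5. Suclg1 was 201 to 218 CPM in Adult mice and 182, 92.6, 174, 169 and 95.7 CPM in O1 to O5. For both genes all Old mice were below all Adult mice, and O2 and O5 were by far the lowest. Suclg2 was 188 to 216 CPM in Adult and 71.5 to 190.4 CPM in Old mice, with O3 inside the Adult range. The log2 fold changes were -0.50, -0.56 and -0.51 for Sucla2, Suclg1 and Suclg2, with adjusted p-values of 0.100, 0.0695 and 0.169 in edgeR's test. They were -0.19, -0.25 and -0.13 without O2 and O5.

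Fh1, fumarate hydratase, and Mdh2, mitochondrial malate dehydrogenase, close the cycle, and Mdh1 is the cytosolic form of the latter. Fh1 was at 170.5, 76.5, 206, 161 and 643 CPM in O1 to O5, and at 170.4 to 228 CPM in Adult and 135 to 248 CPM in PDX mice. O5 was 3.20-fold the Adult mean and above all other mice, and O2 was the lowest, so that the 2 Old mice with the lowest member medians lay at opposite ends. Mdh2 was at 219, 117, 169.5, 213 and 283 CPM in O1 to O5 against 168 to 203 CPM in Adult mice, again with O5 the highest and O2 the lowest, and with O1 and O4 also above the Adult range. The log2 fold changes in aging were 0.32 (standard error 0.40) for Fh1 and 0.14 (standard error 0.18) for Mdh2, and neither passed the test. Without O2 they were 0.56 and 0.29, and without O5 -0.39 and -0.02. Mdh1 was 292 to 638 CPM in Old and 726 to 815 CPM in Adult mice, without overlap (log2 fold change -0.64, standard error 0.19, edgeR adjusted p = 0.0537; -0.36 without O2 and O5).

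The balance of the cytosolic and the mitochondrial malate dehydrogenase was read within each mouse. The ratio of Mdh1 to Mdh2 per kilobase, a pair singled out after the values were seen, was 5.86, 5.57, 5.94, 5.64 and 6.08 in A1 to A5, 3.54, 3.46, 5.22, 3.70 and 1.88 in O1 to O5 and 4.11, 5.21, 3.94, 4.37 and 4.78 in P1 to P5. Every Old and every PDX mouse was below every Adult mouse, O3 and P2 were closest to the Adult range, and O5 was the lowest. The corresponding ratio of Idh1 to Idh2 was 2.50 ± 0.291 in Adult, 2.55 ± 0.751 in Old and 3.67 ± 1.21 in PDX mice (SD, n = 5 each), with overlap of all groups. Ratios of Pdha1 to Pdhb, Sucla2 to Suclg2, Pdk2 to Pdk1 and Fh1 to Suclg1 were also taken, and for each of them all groups overlapped.

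The carriers link the cycle to the cytosol: Slc25a1 exports citrate, Slc25a10 exchanges malate or succinate for phosphate, and Slc25a11 exchanges malate for alpha-ketoglutarate. Slc25a10 was at 169, 261, 234, 266 and 244 CPM in A1 to A5, 139, 84.4, 184, 153 and 103 CPM in O1 to O5 and 133, 144, 163, 149 and 193 CPM in P1 to P5. O3 (184 CPM) and P5 (193 CPM) exceeded A1 (169 CPM), which was far below the other Adult mice, and all other Old and PDX mice were below all Adult mice. From 235 ± 39.0 CPM in Adult to 133 ± 39.5 CPM in Old mice (SD, n = 5 each), the log2 fold change was -0.82 (standard error 0.20, edgeR adjusted p = 0.0297, the Adult mean above 5 of 5 Old mice). It was called in 16 of 23 alternatives, and the call was lost without A2, A3, A4 or A5, without O2 and O5 together, with the replicate block and in the fit of both groups alone. Genes on the opposite strand overlap exon bases of Slc25a10 (6.60%), Mpc1 (23.1%), Pdha1 (16.1%), Slc25a11 (8.92%), Idh3b (0.150%) and Mdh1 (2.03%), and the counts were made by strand.

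Slc25a1 was 101 to 264 CPM in Old and 229 to 295 CPM in Adult mice (log2 fold change -0.37), where only O2 and O5 lay below the Adult range, and the value was -0.24 without O2, -0.20 without O5 and -0.01 without both. Slc25a11 was 45.3 to 85.2 and 73.4 to 95.7 CPM (-0.49, edgeR adjusted p = 0.0668), with O1 inside the Adult range, and -0.24 without O2 and O5. Nnt, the transhydrogenase that makes NADPH from NADH across the inner membrane, had only 12 to 52 counts per mouse (1.38 ± 0.279 CPM in Adult and 0.998 ± 0.455 CPM in Old mice, log2 fold change -0.47, standard error 0.34, -0.24 without O2 and -0.70 without O3). Its symbol belongs to a pair of overlapping gene models, 47.5% of its exon bases are shared with the other model, which had 0 counts in every mouse, and pairs on shared exons may have gone uncounted. Some C57BL/6 substrains carry a deletion in Nnt, and whether these mice do was not tested.

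**Figure D3:**
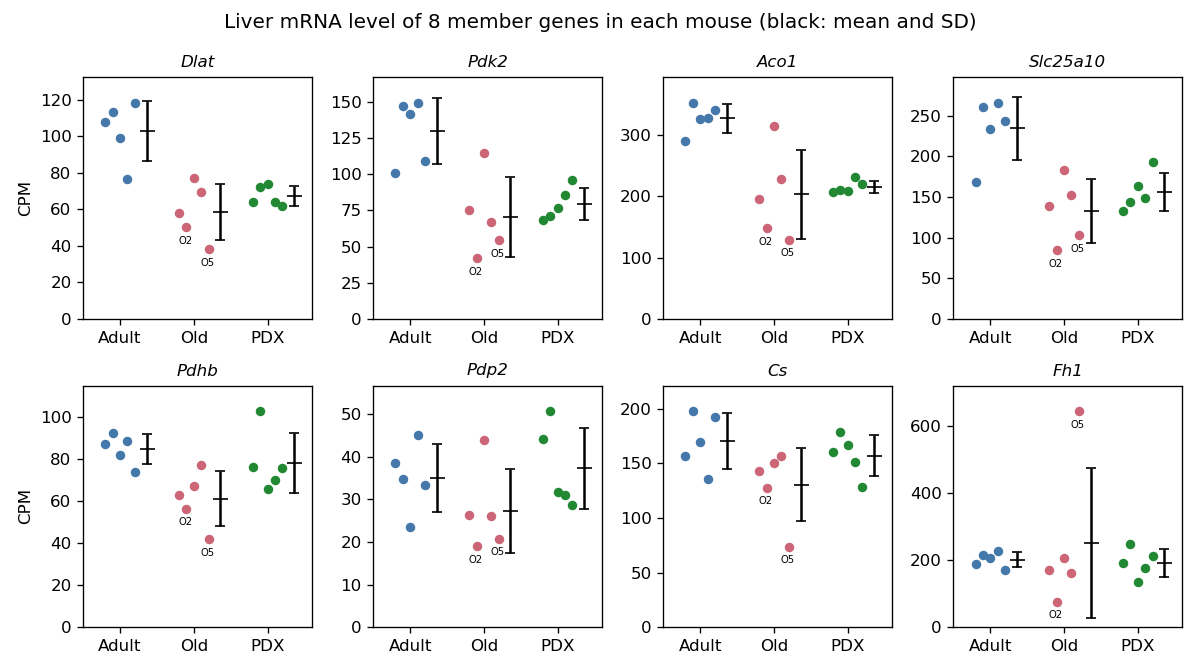
CPM of 8 members in each mouse, with points for the mice of the Adult, Old and PDX groups and black bars for the group mean and SD (n = 5 each); O2 and O5 are named. For Dlat, Pdk2 and Aco1 all PDX mice are below all Adult mice, and for Fh1, singled out after its values were seen, O5 is at 643 CPM.

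PDX treatment was compared with vehicle at the same age. Between PDX and Old mice, 0 of 30 members and 0.0% of all genes passed an edgeR adjusted p of 0.25, and DESeq2 and limma also called 0 members. At an unadjusted p under 0.05, 1 member (3.33%), Pdhb, was higher in PDX mice, where 1.04% of all genes were higher. The fitted log2 fold change was below 0 for 6 members (20.0%), Mpc1, Idh3g, Dlst, Fh1, Mdh2 and Nnt, against 59.9% of all genes, and its median was 0.13 over the members and -0.07 over all genes. These signs rested on O2 and O5: the median of the members was 0.035 without O2 and -0.032 without both, and only 7 members kept 1 sign in all fits. The Old mice enter this comparison as well as that of aging. The ranges of PDX and Old mice overlapped for each of the 30, and the share of all genes with this pattern is not given here. Without O2 and O5, 0 members had every PDX mouse above every Old mouse, a pattern of 2.56% of all genes. Without O2 and O5, 22 members were below 0 (51.6% of all genes), at an unadjusted p under 0.05 Idh2 was lower and 0 were higher (2.77% and 6.18% of all genes), and for Dld alone the PDX mice were all below the 3 Old mice (1.43% of all genes).

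The 3 smallest p-values belonged to Pdhb, Pdp2 and Cs. Pdhb had 77.9 ± 14.4 CPM in PDX and 61.0 ± 13.1 CPM in Old mice (SD, n = 5 each), a log2 fold change of 0.35 (standard error 0.16, edgeR adjusted p = 0.793), and 5 of 5 PDX mice were above the Old mean. Pdp2 had 37.3 ± 9.59 and 27.2 ± 9.82 CPM, a log2 fold change of 0.45 (standard error 0.24, edgeR adjusted p = 0.793). Its 3 lowest PDX mice, at 28.8, 31.0 and 31.9 CPM, were below O3. Cs had 157 ± 19.0 and 130.1 ± 33.4 CPM, a log2 fold change of 0.27 (standard error 0.18, edgeR adjusted p = 0.793), and O5 was the lowest of the Old mice. The 3 kept a log2 fold change above 0 in all 23 alternatives, but its size moved. It was, without O2 and O5, 0.18 for Pdhb, 0.22 for Pdp2 and 0.08 for Cs, without P2 alone it was 0.22 for Pdhb and 0.30 for Pdp2, without O5 alone 0.12 for Cs, and without O3 it rose to 0.69 for Pdp2.

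By role, the log2 fold changes of PDX over Old ran from -0.13 (Mpc1) to 0.35 (Pdhb) for the entry genes and from 0.01 (Pdk4) to 0.45 (Pdp2) for the kinases and the phosphatase. They ran from -0.38 (Fh1) to 0.35 (Idh1) for the cycle enzymes, and from -0.14 (Nnt) to 0.33 (Slc25a1) for the carriers. Both ends of the range of the cycle enzymes were genes with an extreme value in O5. The values at these 8 ends were, without O2 and O5, -0.39 (Mpc1), 0.18 (Pdhb), 0.21 (Pdk4), 0.22 (Pdp2), 0.11 (Fh1), -0.11 (Idh1), -0.45 (Nnt) and -0.02 (Slc25a1). For the 4 genes called in aging, the log2 fold changes of PDX over Old were 0.20 (Dlat), 0.17 (Pdk2), 0.08 (Aco1) and 0.24 (Slc25a10), each with a standard error of 0.17 to 0.22. None of the 4 kept this sign in all fits: without O2 and O5 they were -0.01, -0.10, -0.18 and -0.01, and Aco1 was also below 0 without O2 (-0.01) or O5 (-0.04) alone.

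Between PDX and Adult mice, which share the Adult mice with the comparison in aging, 0 members were called in edgeR's test, where 0.898% of all genes were called lower and 1.76% higher. At an unadjusted p under 0.05, 6 members (20.0%) were lower, Dlat, Pdk2, Aco1, Idh3b, Mdh1 and Slc25a10, against 9.41% of all genes. At that threshold 0 members were higher, and at least the 1.76% of all genes called higher passed it. The fitted log2 fold change was below 0 for 28 members (93.3%), all but Pdp2 and Idh3a, against 51.6% of all genes, with a median of -0.24 over the members and -0.01 over all genes. For 9 members (30.0%), Dlat, Pdk1, Pdk2, Aco1, Idh2, Idh3b, Sucla2, Suclg1 and Mdh1, every PDX mouse was below every Adult mouse, a pattern of 9.34% of all genes.

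The call count of this comparison differed between fits. It was 12 members, all lower, in a fit of the PDX and Adult mice alone, with 13.4% of all genes called lower in that fit, and 11 without O2 and O5, with 10.4% of all genes. At an unadjusted p under 0.05, 16 members were lower without O2 and O5 (16.6% of all genes), and 28 were again below 0 (49.3%). The number called was 5 without O2 (3.37% of all genes called lower), 3 without O3 (1.40%) or O5 (5.52%), and 3 with DESeq2 (3.69%), which were Dlat, Pdk2 and Aco1 each time. In the fit without O2 and O5, genes of other lists were called beside the 11 members. Higher in PDX than in Adult mice were 7 of 8 macrophage, 8 of 8 neutrophil and 7 of 7 B and plasma cell markers. So were 5 of 9 T and NK cell and 2 of 5 cholangiocyte markers, and 2 of 5 proliferation genes. Lower were 4 of 13 clock genes, 3 of 10 feeding-responsive genes and 2 of 7 sinusoidal endothelial markers. Of 8 stellate and fibroblast markers, 2 were higher and 1 lower, and 0 of 6 erythroid markers were called. In related lists, 10 of 20 genes of mitochondrial structure and import and 6 of 9 other PDC and cycle genes (2 higher) were called lower. So were 8 of 19 genes that feed or drain the cycle (2 higher) and 4 of 11 sister dehydrogenase and lipoylation genes. The number lower was 2 of 9 for other mitochondrial carriers (1 higher) and 2 of 10 for regulators. Of 10 hepatocyte markers, 3 were higher and 1 lower. The part of these lists in the result was not tested. Over these fits, the median log2 fold change of the members stayed between -0.24 and -0.22.

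The 3 smallest p-values were those of Dlat, Pdk2 and Aco1. Dlat was at 67.1 ± 5.41 CPM in PDX mice (SD, n = 5), with a log2 fold change from Adult of -0.62 (standard error 0.17, edgeR adjusted p = 0.0705). Pdk2 was at 79.6 ± 11.2 CPM, with -0.70 (standard error 0.22, edgeR adjusted p = 0.101), and Aco1 at 215 ± 10.2 CPM, with -0.60 (standard error 0.19, edgeR adjusted p = 0.105). For each of the 3, 5 of 5 PDX mice were below the lowest Adult mouse, and their adjusted p-values over the alternatives (edgeR, DESeq2 or limma) ran from 0.00211 to 0.154, 0.00271 to 0.207 and 0.000322 to 0.202. Slc25a10 had a log2 fold change of -0.59, and P5 alone lay inside the Adult range.

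Differences past a threshold in 1 comparison and not in another were not tested to differ. The remaining members had log2 fold changes of PDX over Adult from -0.61 (Nnt) to 0.09 (Pdp2). Among the cycle enzymes, Idh2 was 107 to 191 CPM in PDX mice (-0.52), Idh3b 142 to 171 CPM (-0.45), Suclg1 148 to 179.6 CPM (-0.35) and Mdh1 486 to 619 CPM (-0.41), all below the Adult ranges given above. The genes nearest to no difference were Mdh2 (-0.04), Slc25a1 (-0.05), Idh1 (-0.05) and Fh1 (-0.06). Slc25a11 varied least among the PDX mice relative to its level, from 70.5 to 73.6 CPM, below the lowest Adult mouse (73.4 CPM) in all but P5.

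Other genes of the pathway were read from lists of genes outside the 30. Of 9 other complex and cycle genes tested, 2 were called higher in Old than in Adult mice and 2 lower. Pdk3, a further kinase of the complex, was at a low level and higher in Old (log2 fold change 2.32, 0.550 to 2.77 CPM, with O2 at 8.05 CPM), as was Pdp1, another phosphatase of the complex (1.75, 1.31 to 4.42 CPM). Sdha and Sdhb, subunits of succinate dehydrogenase, the cycle enzyme of the respiratory chain, were lower (-0.70 and -0.67, edgeR adjusted p = 0.0444 and 0.0349). Pdp1 was also higher in PDX than in Adult mice (1.66, edgeR adjusted p = 0.0390), and Ogdhl was not tested because of its low counts. Without O2 and O5, Pdk3, Sdha and Sdhb were called in aging and Pdp1 was not.

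Among 19 genes that feed or drain the cycle, 3 were called lower in Old, with Gls2, liver glutaminase, at -1.38 and Gpt, alanine aminotransferase, at -0.90, and 1 higher, Pck2, mitochondrial phosphoenolpyruvate carboxykinase, at 1.07. None of 11 genes of the sister dehydrogenases and of lipoylation was called (median -0.38). Of 9 other mitochondrial carriers, Slc25a4, an adenine nucleotide carrier, was called higher (1.06) and Slc25a20, the acylcarnitine carrier, lower (-0.54), with a median of -0.07. Of 20 genes of mitochondrial structure and import, 1 was called lower, Opa1, which fuses inner membranes (-0.61), with a median of -0.16. Of 10 regulators, 1 was called lower, the mitochondrial deacetylase Sirt3 (-0.81), with a median of -0.03. The genes that feed or drain the cycle had a median of -0.56. Without O2 and O5 the medians were -0.33 for these, -0.09 for the sister dehydrogenases, -0.23 for the carriers, -0.11 for the structure genes and -0.22 for the regulators, beside -0.18 for the members. In that fit 0 carriers were called, 1 of the sister dehydrogenase genes, Bckdha, was called lower, and 2 genes that feed or drain the cycle were called higher and 4 lower.

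Feeding-responsive liver genes and clock genes had 0 called of 10 and of 13 in aging. Their medians were -0.29 and -0.14 in Old over Adult, and -0.51 and -1.06 in PDX over Adult mice. Without O2 and O5 these medians were -0.36 and -0.39 in Old over Adult, and -0.49 and -1.04 in PDX over Adult mice. In O5, however, Igfbp1, which is induced in fasting and stress and was singled out after its values were seen, was at 5504 CPM against an Adult mean of 135 CPM. Among the Adult mice, A4 differed in clock genes, picked after their values were seen: Arntl was at 2.45 CPM and Dbp at 189 CPM in A4, against 29.0 to 39.4 and 4.94 to 40.5 CPM in the other Adult mice. A4 also had the lowest Adult level of Dlat and the lowest level of Pdk4 of all mice. The part of feeding state or time of day in the members' levels was not tested.

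The members lie on 16 chromosomes, 5 of them on chromosome 11 (Pdk2, Ogdh, Mdh1, Slc25a10 and Slc25a11). Of the 30, 28 matched a RefSeq promoter of the mouse build GRCm38.p6, from 250 bases before to 50 bases after the start of transcription, of which the start nearest to that of the annotation was taken, and Idh3a and Nnt did not. That start lay up to 883 bases from the annotated start of the gene in 27 of the 28, with a median of 23.5 bases over the 28, and 27467 bases away for Sucla2, whose window is counted below and holds a GC box. The median share of G or C was 62.0% in these 28 and 52.7% in all 32851 promoters. The letters CCGCCC (GC box) stood on either strand of 21 of the 28, against 35.7% of all promoters, and CCAAT of 19, against 37.4%. CACGTG (E-box) stood in 3 (Pdk2, Pdp2 and Slc25a1; 7.15% of all), CCGGAAG (ETS core) in 4 (Mpc1, Idh3b, Idh3g and Dlst; 8.86%), and TATAAA in 0 (13.6%). AAGGTCA, the half-site within the ERR element, stood in 0 (4.72%), as did the full element TCAAGGTCA (0.423%), which contains it, and GCGCATGC (NRF1 core, 2.71%). A match describes letters only, and a missing match says only that the letters are not in this window.

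The promoters of the 4 genes called lower in aging are shown since these members passed the test, as given by RefSeq for GRCm38.p6, each on the strand of its gene. Capitals mark the letters of the GC box, the CCAAT box and the E-box on either strand. They are at chr9:50659731-50660030, minus strand (Dlat), chr11:95041322-95041621, minus strand (Pdk2), chr4:40143015-40143314, plus strand (Aco1) and chr11:120491587-120491886, plus strand (Slc25a10). Pdk2 alone of the 4 holds an E-box, with 3 CCAAT boxes and no GC box. Dlat holds 1 GC box, Aco1 3 GC boxes, and Slc25a10 2 GC boxes and 1 CCAAT box.
Dlat: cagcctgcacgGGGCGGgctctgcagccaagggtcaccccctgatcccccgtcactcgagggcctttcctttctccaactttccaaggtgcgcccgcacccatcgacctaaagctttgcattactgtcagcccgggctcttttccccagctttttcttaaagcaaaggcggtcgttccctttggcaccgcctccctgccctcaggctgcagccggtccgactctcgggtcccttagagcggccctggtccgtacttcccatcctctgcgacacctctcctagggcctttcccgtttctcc
Pdk2: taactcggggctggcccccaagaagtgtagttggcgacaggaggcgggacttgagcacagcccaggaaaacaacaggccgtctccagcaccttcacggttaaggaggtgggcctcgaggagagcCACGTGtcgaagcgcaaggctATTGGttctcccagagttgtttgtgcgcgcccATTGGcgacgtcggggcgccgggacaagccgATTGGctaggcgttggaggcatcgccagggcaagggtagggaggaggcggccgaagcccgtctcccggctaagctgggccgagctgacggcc
Aco1: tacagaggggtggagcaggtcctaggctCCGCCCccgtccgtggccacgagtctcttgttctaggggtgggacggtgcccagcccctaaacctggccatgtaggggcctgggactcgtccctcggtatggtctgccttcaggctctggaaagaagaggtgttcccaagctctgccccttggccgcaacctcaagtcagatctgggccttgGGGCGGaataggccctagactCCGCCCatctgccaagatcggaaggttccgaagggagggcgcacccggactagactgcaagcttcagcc
Slc25a10: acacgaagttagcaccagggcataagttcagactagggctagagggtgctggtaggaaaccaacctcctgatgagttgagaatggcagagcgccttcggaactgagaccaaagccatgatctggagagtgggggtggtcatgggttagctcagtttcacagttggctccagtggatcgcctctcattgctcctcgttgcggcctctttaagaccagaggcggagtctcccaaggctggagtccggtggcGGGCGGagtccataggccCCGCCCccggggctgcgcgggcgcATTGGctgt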

How the data were processed

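The deposited counts are read pairs per Ensembl gene in 15 livers, which the authors obtained with STAR 2.6.0c on mm10 and featureCounts (Subread 1.6.2), using unique proper pairs on the gene's strand and leaving out mitochondrial genes. The authors also deposited log2-scale values, a variance stabilizing transformation by DESeq2 1.23.10. No table column lacked a mouse (0 columns). Symbols, coordinates and exon lengths came from GENCODE M21 (GRCm38), which named 55190 of 55450 identifiers.

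The members and gene lists were chosen with earlier results of these data known, and so no set test was run and no p was adjusted over the list.

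In edgeR 4.0.16 (limma 3.58.1, R 4.3.3), filterByExpr (minimum count 10, minimum total 15) kept 15808 genes, libraries were scaled by TMM, and a single quasi-likelihood fit with 1 coefficient per group gave Old vs Adult, PDX vs Old and PDX vs Adult. P-values were Benjamini-Hochberg adjusted over all genes, with a threshold of 0.05 (0.25 for PDX vs Old, as in the study). A standard error is the log2 fold change divided by the root of F. Depths per mouse were 22424383 to 36070835 counts. P-values and standard errors measure a spread between mice that is pooled over all groups. The group not compared therefore enters each test, and the fits of the 2 groups compared leave it out. The script was tested on simulated counts.

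Named genes: all members were accounted for; every mouse is given for members called in any comparison and for the 3 smallest p-values of PDX vs Old and of PDX vs Adult; from other lists, the called genes with the 3 largest log2 fold changes in aging. Other genes singled out are said to be. Alternatives were DESeq2 1.42.0, limma on the log2-scale values, RLE and upper-quartile factors, no low-count filter, fits of the 2 groups compared, each mouse left out, no O2 and O5, and a replicate block. Tables were made in Python 3.11.15 with pandas 2.3.3 and numpy 2.4.6. Frailty labels were not used here, and 1 gene's level is not reported here.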

Additional observations from a re-analysis of the deposited data

Results flagged for a closer look

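In 2 of 90 groups of 5 mice tested (30 members in 3 groups), 1 mouse stood apart from the others by Dixon's criterion on log2 CPM, where chance alone gives about 1 in 20. Cs was at 73.6 CPM in O5, and at 128 to 157 CPM in the 4 other Old mice. Slc25a10 was at 169 CPM in A1, and at 234 to 266 CPM in the 4 other Adult mice. The call of Slc25a10 in aging held without A1.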

How the results depend on the processing

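Over 23 alternatives, 24 of 30 members kept 1 sign of the log2 fold change in Old vs Adult and in PDX vs Adult, and 7 in PDX vs Old. No called member reversed: of 690 member results per comparison, 38 lost and 14 gained the call in aging, 37 gained it in PDX vs Adult, and none changed in PDX vs Old.

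Members called in Old vs Adult numbered 4 in the reported fit, 10 with DESeq2, 0 in the fit of both groups alone, 1 without O2 and O5, and 0 to 8 without 1 mouse. In PDX vs Adult they numbered 0 in the reported fit, 3 with DESeq2, 12 in the fit of both groups alone, 11 without O2 and O5, and 0 to 5 without 1 mouse. The median log2 fold change of members in PDX vs Old was 0.13, -0.032 without O2 and O5, and 0.035 to 0.21 without 1 mouse. RLE and upper-quartile factors, no low-count filter and limma gave 4, 3, 3 and 4 members in aging and 0 in both other comparisons. In these fits 1.98%, 1.54%, 0.529% and 2.05% of all genes were called lower in aging. In PDX vs Adult the shares called lower were 0.911%, 0.727%, 0.305% and 1.09%. The cause of these changes was not tested. Over all genes, calls in aging numbered 1072, 2524 with DESeq2, 665 without the low-count filter, 651 with limma, 237 with the block, 110 in the fit of both groups alone and 1102 without O2 and O5; in PDX vs Adult they numbered 420, 1383 with DESeq2, 4703 in the fit of both groups alone and 3962 without O2 and O5.

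With the replicate block, 0 members were called in Old vs Adult, PDX vs Old and PDX vs Adult. Deviations from the group means of same-numbered mice had a mean correlation over genes of -0.168 (5 pairs; 0.0435 in the 20 other pairs) between Old and Adult, 0.092 (-0.0225) between PDX and Old and 0.031 (-0.0078) between PDX and Adult, and 0, 2 and 2 of 5 mice correlated best with their own number. Same-numbered mice were thus less alike than others in the first comparison and slightly more alike in the other 2, and whether the numbers pair any samples is open.

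With 5 mice a group and 2 Old mice far from the others, a missed threshold does not show equal levels. Depth limits Nnt (12 to 52 counts per mouse).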
